A study of Homo sapiens with 2 samples.

Results

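The genes described here build the machinery that moves membrane and cargo between compartments: vesicle coats, tethers, SNAREs, the proteins that regulate them and the small GTPases that recruit coats. They were chosen by gene symbol, as all genes whose symbol begins with a VPS, SNX, COP, SEC, STX, STXBP, VAMP, SNAP, AP-1 to AP-5 (alpha subunits left out), TMED, TRAPPC, ARF, ARFGEF, ARFGAP, ARL, EXOC, COG, SYT, SYTL or CHMP stem, and 32 of the 2046 genes in the table met that rule, STXBP3 among them. The libraries were 1 of MDA-MB-231 cells in which TMEM25 had been knocked out (labelled TAMER-/-) and 1 of the wild-type line (labelled TAMER+/+), both grown in DMEM with 10% serum. MDA-MB-231 is a triple-negative breast cancer cell line, and the series title asks how EGFR monomers switch on STAT3. The labels do not say whether the knockout was a single clone or a pool. With 1 library per genotype nothing below has a replicate check, no test was made, and every interval covers counting error only.

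Cargo that is to be secreted enters the endoplasmic reticulum through the SEC61 channel, leaves it in COPII vesicles, is sorted through the Golgi with COPI vesicles returning escaped proteins, and is carried to the cell surface, where tethers catch the carrier and SNAREs fuse it. On the inward route, adaptor proteins and sorting nexins select cargo at the trans-Golgi network, the plasma membrane and endosomes, and ESCRT proteins bud vesicles into the endosome. Sec1/Munc18 proteins such as STXBP3 hold and guide syntaxins during fusion, and ARF and ARL GTPases bring coats and tethers to the right membrane.

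The table holds only genes with a deposited ratio of knockout to wild type of at least 2 (2046 of 2046) and a knockout value of at least 1 (2046 of 2046), so all members were higher in knockout cells by selection, and that direction is not a result. Genes not in the table, among them TMEM25, EGFR and STAT3, were not analysed here, so loss of TMEM25 RNA was not checked. The direction follows the column headers for values, counts and ratios, which are in accord, whereas those of the log2 columns are crossed. Reads assigned to these genes came to 4138956 in knockout cells and 1046999 in wild-type cells, sums over a selected set that say nothing of full depth. Of the 6 markers of the MDA-MB-231 line 0 were in the table, as were 0 of 8 fibroblast, 0 of 8 leukocyte and 0 of 8 neuronal secretion markers, which leaves the identity of the line unchecked. Of 12 luminal breast markers 2 were, TFF1 at 5920.23 in knockout cells and 0.94 in wild-type cells, and TFF3 at 127.85 in knockout and 3.68 in wild-type cells. Whether the libraries differ in cell identity, and what part that would have in the values below, was not tested. In bulk RNA fewer cells of a type and less RNA per cell cannot be told apart.

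Promoter sequences are shown for 5 members. STXBP3 is the gene for which the group was named. SNX25 has the only match to the STAT letters in the windows searched, which cover 23 of the 32 members. SNX7 and SYTL5 were nearly unread in wild-type cells, and AP4B1 starts head to head with another gene of the table. Each sequence is the RefSeq window (GRCh38.p14) from 250 bases before to 50 after a start, read 5′ to 3′ on the gene's strand. Capitals mark TGACGTCA, the cyclic AMP response element, in STXBP3, and TTCNNNGAA, the letters STAT factors prefer, in SNX25. The SNX25 window is the downstream one of 2, and the other holds no match. AP4B1 also has another window, downstream of the one shown. In SNX7, SYTL5 and AP4B1 capitals mark CG pairs.
STXBP3, chr1:108746424-108746723, plus strand: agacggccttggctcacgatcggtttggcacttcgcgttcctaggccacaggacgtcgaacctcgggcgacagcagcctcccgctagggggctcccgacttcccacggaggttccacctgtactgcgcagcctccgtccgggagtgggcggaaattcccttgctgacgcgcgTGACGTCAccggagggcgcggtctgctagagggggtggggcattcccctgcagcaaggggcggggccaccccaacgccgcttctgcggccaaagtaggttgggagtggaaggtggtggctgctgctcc
SNX25, chr4:185209348-185209647, plus strand: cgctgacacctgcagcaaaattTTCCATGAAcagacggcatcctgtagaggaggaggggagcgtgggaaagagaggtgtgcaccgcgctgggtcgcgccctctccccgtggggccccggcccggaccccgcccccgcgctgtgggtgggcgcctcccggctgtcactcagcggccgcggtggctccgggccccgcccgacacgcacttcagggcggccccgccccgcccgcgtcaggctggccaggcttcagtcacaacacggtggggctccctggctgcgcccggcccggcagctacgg
SNX7, chr1:98661471-98661770, plus strand: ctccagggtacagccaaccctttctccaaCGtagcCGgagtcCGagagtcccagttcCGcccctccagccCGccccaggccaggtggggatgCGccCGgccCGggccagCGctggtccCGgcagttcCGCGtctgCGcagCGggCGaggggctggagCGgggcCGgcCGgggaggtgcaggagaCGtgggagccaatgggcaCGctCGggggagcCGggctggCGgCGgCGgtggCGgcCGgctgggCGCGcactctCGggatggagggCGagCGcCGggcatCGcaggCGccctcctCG
SYTL5, chrX:38006303-38006602, plus strand: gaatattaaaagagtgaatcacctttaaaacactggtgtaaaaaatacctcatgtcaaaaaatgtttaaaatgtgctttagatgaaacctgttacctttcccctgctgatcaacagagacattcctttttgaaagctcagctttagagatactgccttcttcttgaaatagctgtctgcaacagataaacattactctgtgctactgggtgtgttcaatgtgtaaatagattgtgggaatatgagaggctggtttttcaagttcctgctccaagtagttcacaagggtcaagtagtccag
AP4B1, chr1:113904979-113905278, minus strand: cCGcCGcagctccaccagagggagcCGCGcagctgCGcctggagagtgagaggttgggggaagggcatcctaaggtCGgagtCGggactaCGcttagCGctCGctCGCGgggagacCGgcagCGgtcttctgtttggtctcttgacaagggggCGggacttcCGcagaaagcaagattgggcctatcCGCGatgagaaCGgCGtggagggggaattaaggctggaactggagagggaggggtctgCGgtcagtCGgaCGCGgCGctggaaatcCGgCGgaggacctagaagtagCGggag

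RefSeq gave 33 such windows for 23 of the members, since some have several starts. SYTL2 and SEC24D were among the members without a window. TTCNNNGAA, which reads the same on both strands, was in 1 of the 33 windows (3.03%), against 7.66% of all 35116 windows. TGACGTCA, also the same on both strands, was in 1 window (3.03%), against 1.85% of all windows, and its core TGACGT, searched on both strands and part of TGACGTCA, was in 4 (12.1%), against 7.98%. The windows with the core belonged to STXBP3, COPE, ARF5 and ARFGEF3. A match is a description of letters and not a bound site. All 35116 windows cover 27305 genes, more than the 20056 protein-coding genes of RefSeq. They were not matched to the members in gene type or level, so the motif shares and CG counts compare unlike sets. The median window of a member held 28 CG pairs, against 14 over all windows. SNX7 held 36 and SYTL5 0 in the windows shown, and 3 in its other window, so these members, the least read in wild-type cells, lay above and below that median.

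Each library has 2 deposited measures per gene. The expression value is scaled for gene length and library depth, in a unit the authors do not name, and is the scale on which levels of different genes are compared. The read count gives a read-count fold, knockout over wild type after correction for the libraries' relative depth, with a 95% counting interval. A gene was called 2-fold higher by size alone when log2((knockout value + 1) / (wild-type value + 1)) was at least 1. This held for 27 of the 32 members, against 80.6% of all genes in the table, and the median log2 ratio was 1.37 for the members and 1.33 for all genes. The 5 members under that mark were ARFGEF3, TMED7-TICAM2, AP4E1, VAMP1 and EXOC6B. Like every gene in the table they had a deposited ratio of at least 2, and fell short only through the pseudocount of 1. On the deposited ratio, by selection, and on read counts all 32 members were at least 2-fold higher. Read counts are no separate check, since their fold is scaled to the expression values of these same selected genes. With a pseudocount of 5 the count was 16, and it was 4 after centring on the median of all genes, a scaling that takes the one-sided selection of the table for a shift between the libraries.

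**Figure D1:**
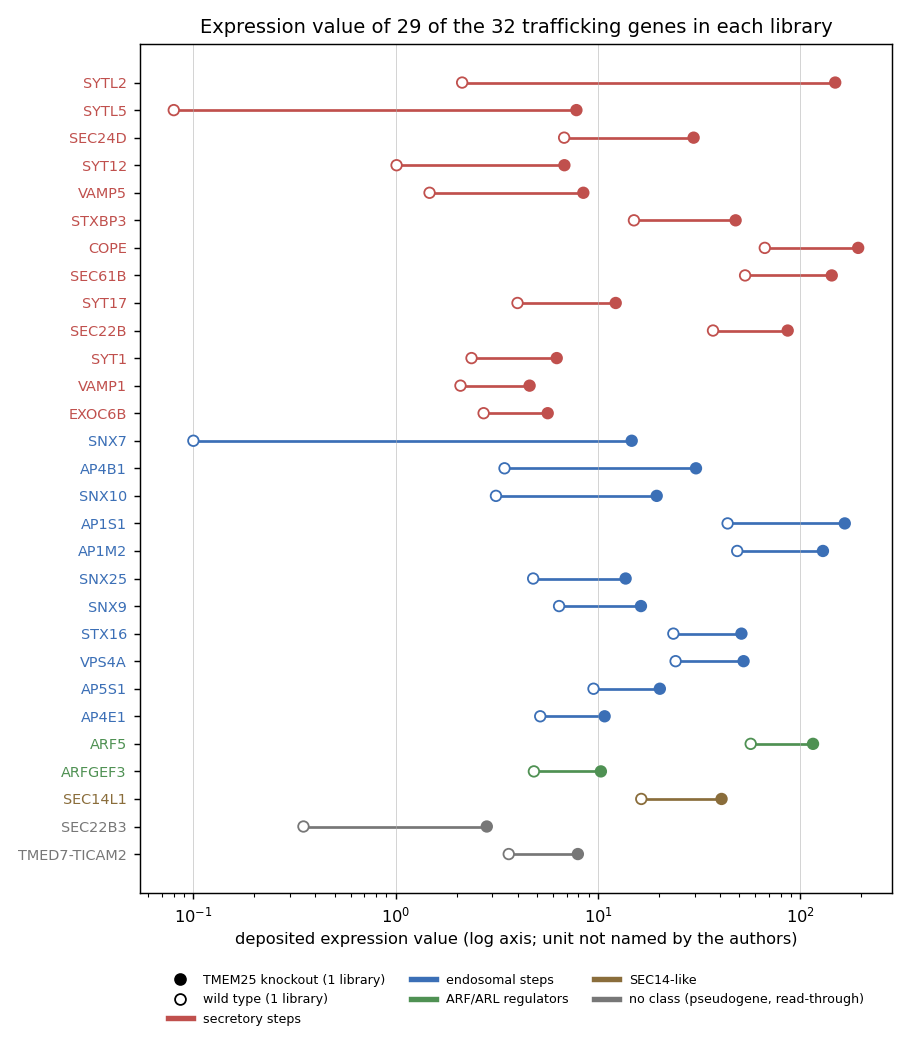
Deposited expression value (log axis) of 29 of the 32 members in the library of knockout cells (filled) and of wild-type cells (open), coloured by trafficking step and ordered by log2 ratio within a step. COPE is the highest at 193.12 in knockout and 66.72 in wild-type cells, SYTL2, SYTL5 and SNX7 have the widest gaps, and most other gaps are alike in width.

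On the log2 scale members were spread much like all genes, with quartiles of 1.09 and 1.91 for members and 1.04 and 1.86 for all genes. A 4-fold difference on that scale was reached by 5 of the 32 members, SYTL2, SNX7, SYTL5, AP4B1 and SNX10. It was reached by 436 of all 2046 genes (21.3%). The deposited ratio was at least 10 for 3 members (9.38%), against 20.1% of all genes. It was under 3 for 19 members (59.4%), against 42.6% of all genes. The median expression value of the members was 19.9 in knockout cells and 5.03 in wild-type cells, against 12.1 in knockout cells and 2.91 in wild-type cells for all genes. Only 2 members (6.25%) had under 10 wild-type reads, against 15.7% of all genes. Among genes with a wild-type value of at least 10, the median deposited ratio was 2.57 for the 10 members and 2.56 for all 553 genes. For those with a lower wild-type value it was 2.96 for 22 members and 4.24 for all 1493 genes. Levels were not matched within this lower set, where the median wild-type value was 3.535 for members and 1.27 for all genes. The median log2 ratio there, with its pseudocount of 1, was 1.37 for members and 1.34 for all genes. These are descriptions of overlapping sets, and no test of the difference was made.

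**Figure D2:**
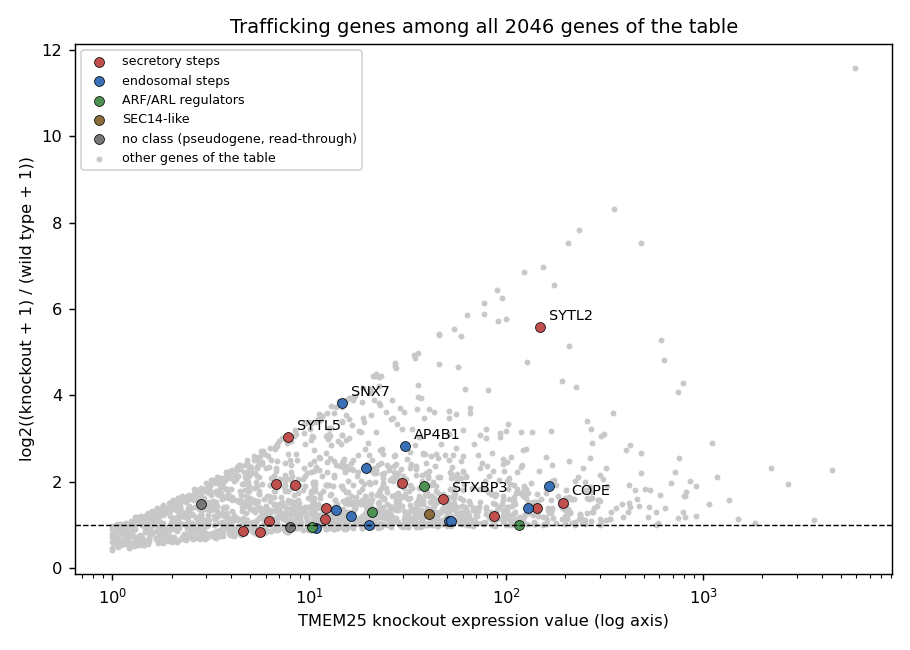
Log2((knockout + 1) / (wild type + 1)) against the knockout expression value (log axis) for the 32 members, coloured by step, and the other genes of the table in grey, with a dashed line at 1, the 2-fold mark. Most members lie between 0.84 and 2.31, around the median of 1.33 for all genes, while AP4B1 (2.82), SYTL5 (3.03), SNX7 (3.83) and SYTL2 (5.58) stand above.

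Of the 14 members assigned to secretory steps, 12 were called 2-fold higher, with a median log2 ratio of 1.46. Of the 11 assigned to endosomal steps 10 were, with a median of 1.35. The medians differed by 0.12 on the log2 scale (secretory minus endosomal), and by 0.06 without SYTL2. Their ranges overlapped, from 0.84 to 5.58 for secretory and from 0.93 to 3.83 for endosomal members. Summed over members, the read-count fold was 5.21 for secretory members, or 2.996 without SYTL2, and 2.76 for endosomal members. No test of the difference between the steps was possible. The 4 ARF and ARL regulators had a median log2 ratio of 1.16, with 3 called. The share called was 80.6% over all genes in the table, and the median log2 ratio 1.33.

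Early in the secretory route, a single subunit of each coat was in the table. SEC61B, the beta subunit of the SEC61 channel, was at 142.95 in knockout cells and 53.32 in wild-type cells, a read-count fold of 2.68 (95% counting interval 2.41 to 2.99). SEC24D, a cargo-binding subunit of COPII, was at 29.68 in knockout and 6.80 in wild-type cells, with a fold of 4.39 (3.96 to 4.88), the largest among the coat subunits of the secretory steps. COPE, the epsilon subunit of COPI and the most abundant member, was at 193.12 in knockout and 66.72 in wild-type cells, with a fold of 2.89 (2.70 to 3.09). The intervals of SEC24D and COPE do not overlap, so the ratio of these subunits in the same libraries differed beyond counting error. The other 11 COPII, 7 COPI and 7 translocon or signal peptidase genes named in RefSeq were not analysed here.

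Fusion genes of the secretory steps were led in level by SEC22B, a SNARE of transport between the endoplasmic reticulum and the Golgi, at 86.59 in knockout cells and 37.01 in wild-type cells, with a fold of 2.33 (2.18 to 2.50). VAMP5, a VAMP known from muscle plasma membrane, was at 8.46 in knockout and 1.47 in wild-type cells, from 100 knockout and 15 wild-type reads, so its fold of 5.77 had a wide interval (3.34 to 10.7). VAMP1, a synaptobrevin of neuronal vesicles, was at 4.59 in knockout and 2.09 in wild-type cells, and its interval of 1.71 to 2.71 included 2. STXBP3, also called Munc18c, which binds syntaxin 4 at the plasma membrane, was at 47.87 in knockout cells and 15.05 in wild-type cells, from 2246 knockout and 611 wild-type reads. Its fold was 3.18 (2.91 to 3.49), close to the median of 3.27 over the table, and the interval of SEC22B lay below it. STXBP3 lies on the plus strand at chr1:108746674-108809526 (GENCODE 29, GRCh38). EXOC6B, a subunit of the exocyst that tethers carriers at the cell surface, was at 5.64 in knockout and 2.72 in wild-type cells, with the lowest log2 ratio of all members, 0.84.

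On the log2(value + 1) scale the largest difference of any member was that of SYTL2, a synaptotagmin-like protein or Slp. Slps link RAB27 on secretory granules to the plasma membrane. SYTL2 was at 148.73 in knockout cells and 2.13 in wild-type cells, from 13623 knockout and 205.83 wild-type reads, a fold of 57.3 (49.9 to 66.0). In knockout cells 2 members had a higher value than SYTL2, COPE and AP1S1, while in wild-type cells 25 had. SYTL5, on chromosome X, was at 7.82 in knockout and 0.08 in wild-type cells, from 705 knockout and 6 wild-type reads, a fold of 102 (46.5 to 278). RAB27A, their GTPase partner and not itself a member, was at 10.61 in knockout and 3.71 in wild-type cells, with a fold of 2.91 (2.49 to 3.42), where the median over the table was 3.27.
Among synaptotagmins, SYT12, a form that does not bind calcium, was at 6.82 in knockout and 1.01 in wild-type cells, with a fold of 6.80 (5.14 to 9.15). SYT1, the calcium sensor of neurotransmitter release, was at 6.25 in knockout and 2.37 in wild-type cells, and SYT17, also calcium-independent, at 12.23 in knockout and 4 in wild-type cells. Their folds of 2.62 (2.196 to 3.13) and 2.79 (2.33 to 3.35) overlap each other and lie below that of SYT12. Slps and synaptotagmins made up 5 of the 14 secretory members, with a median log2 ratio of 1.96, and without them the other 9 had a median of 1.41.

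**Figure D3:**
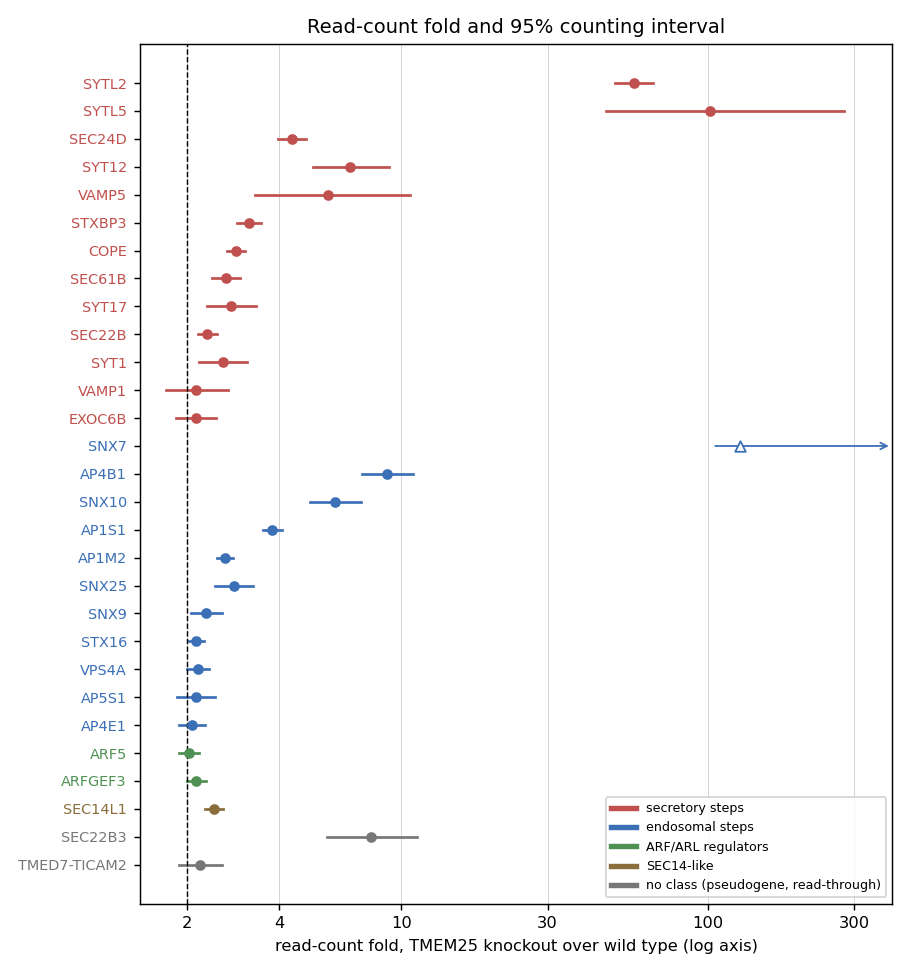
Read-count fold (points, log axis) with its 95% counting interval (bars) for 29 of the 32 members in the order of the plot of expression values, with a dashed line at 2. SNX7 has 0 wild-type reads, so its triangle is a value computed with 3 reads in place of 0. Its arrow begins at the lower limit of the interval and has no upper limit. The intervals of EXOC6B, VAMP1, AP5S1, AP4E1, ARF5 and TMED7-TICAM2 cross 2.

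The lower limit of the counting interval was above 2 for 26 of the 32 members, against 76.5% of all genes, and above 4 for 7, against 32.4%. Those 7 were SYTL2, SNX7, SYTL5, AP4B1, SNX10, SYT12 and the pseudogene SEC22B3.

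On the endosomal side, adaptor subunits of 3 complexes were in the table. AP-1, which sorts cargo between the trans-Golgi network and endosomes, gave AP1S1, a sigma subunit, at 165.80 in knockout cells and 43.70 in wild-type cells, and AP1M2, the mu subunit of epithelial cells, at 129.31 in knockout and 48.75 in wild-type cells. Their folds were 3.80 (3.53 to 4.09) and 2.65 (2.50 to 2.82), with intervals apart, and they are the most abundant endosomal members in both libraries. AP-4, a coat of the trans-Golgi network, gave its beta subunit AP4B1 at 30.49 in knockout and 3.45 in wild-type cells and its epsilon subunit AP4E1 at 10.78 in knockout and 5.18 in wild-type cells. With folds of 8.998 (7.45 to 11.0) and 2.08 (1.88 to 2.29), these partners of a single complex were the farthest apart of the 5 adaptor subunits in the table. AP5S1, of the late endosomal AP-5, was at 20.21 in knockout and 9.50 in wild-type cells, with a fold of 2.14 (1.86 to 2.47).

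In GENCODE 29 AP4B1 starts 60 bases from DCLRE1B on the opposite strand of chromosome 1, and the ends of both genes overlap there. The RefSeq starts behind the promoter windows of AP4B1 lie farther downstream, outside that overlap. DCLRE1B, a nuclease that protects telomeres, was at 24.74 in knockout and 3.87 in wild-type cells, with a fold of 6.33 (5.52 to 7.29). Without strand, which is not given for these libraries, reads from such an overlap cannot be told apart. Of the distinct 50-base stretches of AP4B1 transcripts, 9.42% are in transcripts of other genes on the opposite strand. These genes include AP4B1-AS1, DCLRE1B and SYNGR2, so the share is not that of DCLRE1B alone.

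Sorting nexins, which bind endosomal phosphoinositides, gave 4 members, and all 4 were called 2-fold higher, as were 80.6% of all genes in the table. SNX7, a nexin that bends membranes, was at 14.67 in knockout cells from 440 reads. It had 0 reads in wild-type cells, for which the authors entered 0.1. With 3 reads in place of 0 its read-count fold was 127, a value set by that floor. Its counting interval began at 103 and had no upper limit. SNX10, a nexin of the endolysosomal system, was at 19.50 in knockout and 3.13 in wild-type cells, with a fold of 6.07 (5.04 to 7.37). SNX25, which has been tied to turnover of the TGF-beta receptor, and SNX9, a dynamin partner in clathrin-mediated uptake, lay lower, at 13.69 in knockout and 4.78 in wild-type cells and at 16.30 in knockout and 6.42 in wild-type cells, with folds of 2.85 (2.47 to 3.28) and 2.31 (2.06 to 2.61). All 4 had similar levels in knockout cells (13.69 to 19.50) and spread from 0.1 to 6.42 in wild-type cells. Both remaining endosomal members lay near the limit of the table: STX16, a syntaxin of the trans-Golgi network, at 51.14 in knockout and 23.57 in wild-type cells with a fold of 2.15 (2.03 to 2.27), and VPS4A, the ATPase that takes ESCRT filaments apart, at 52.41 in knockout and 24.18 in wild-type cells with a fold of 2.17 (2.001 to 2.35).

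Among regulators, ARF5, a coat-recruiting GTPase of the Golgi, was at 115.51 in knockout and 56.84 in wild-type cells, and its fold of 2.03 (1.89 to 2.19) was the lowest of all members. ARFGEF3, named for its likeness to ARF exchange factors, was at 10.33 in knockout and 4.82 in wild-type cells, with a fold of 2.14 (2.003 to 2.30). SEC14L1, a SEC14-like protein taken in by its symbol, was at 40.79 in knockout and 16.36 in wild-type cells, with a fold of 2.45 (2.29 to 2.62).

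The symbol rule also took in SEC22B3, which RefSeq names as the transcribed pseudogene SEC22B3P, at 2.82 in knockout and 0.35 in wild-type cells, and TMED7-TICAM2, a read-through of neighbouring genes, at 7.95 in knockout and 3.62 in wild-type cells. Of their distinct 50-base stretches 99.4% and 94.1% occur in transcripts of other genes, so both values, and their folds of 7.94 (5.73 to 11.2) and 2.21 (1.89 to 2.59), depend on how shared reads were divided and are uncertain. The same share was 8.83% for SEC22B, 24.4% for STX16 (most often in the read-through STX16-NPEPL1), 20.8% for VPS4A and 12.6% for ARF5, and at most 8.85% for the other members. On the opposite strand it reached 19.7% for VPS4A, which overlaps COG8, and 16.1% for ARF5, which overlaps GCC1.

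Of 286 RefSeq protein-coding genes with a matching symbol, 32 (11.2%) were in the table, against 10.0% of all 20056 protein-coding genes. That number leaves out SEC22B3 and takes in TRAPPC14, which the table lists as C7orf43, an older symbol the rule does not match. The share was 11.8% of 127 secretory genes, 10.3% of 107 endosomal genes and 10.0% of 40 regulators. How many of the remaining genes were lower, alike or silent in these cells is not known.
By class, the share ran highest for Sec1/Munc18 and syntaxin-binding proteins (2 of 7), synaptotagmins and Slps (5 of 23), ARF GTPases (1 of 5) and AP adaptors (5 of 26). In 6 of 22 classes no gene was in the table: the COG tether (0 of 8), p24 cargo proteins (0 of 10), GARP and EARP (0 of 5), HOPS, CORVET and VPS45 (0 of 10), retromer and retriever (0 of 6) and VPS13 with VPS72 (0 of 5). Of 20 ESCRT genes only VPS4A was present, and of 13 exocyst genes only EXOC6B.

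**Figure D4:**
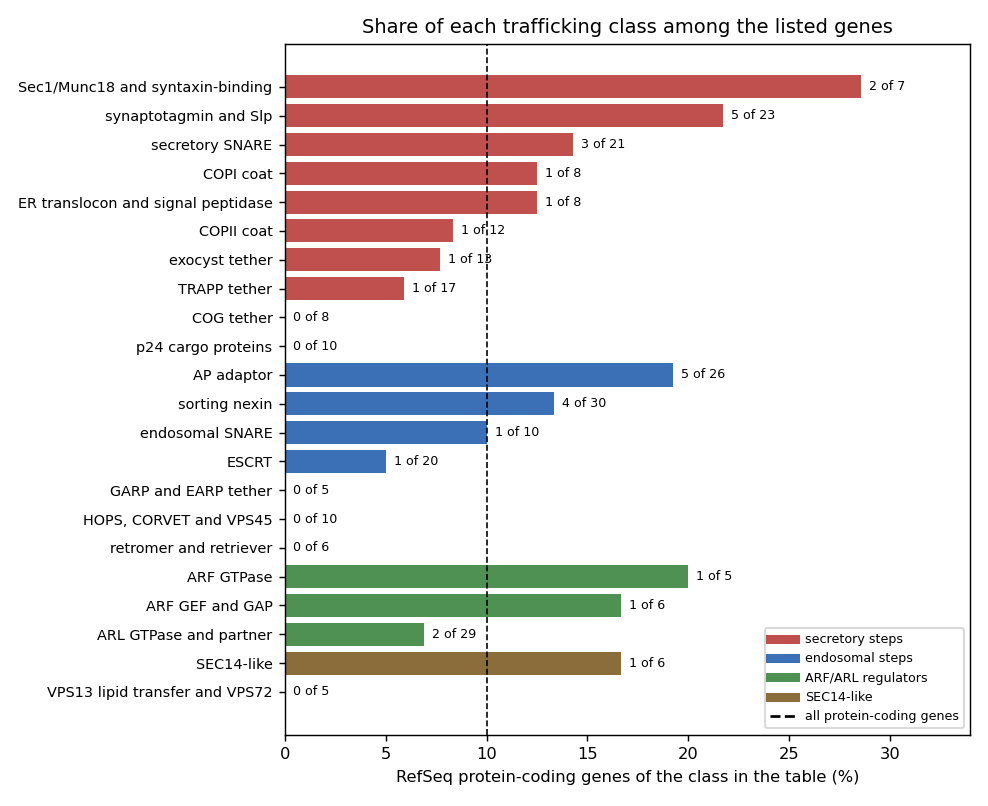
Percentage of the RefSeq protein-coding genes of each trafficking class that are in the table, with counts beside the bars and a dashed line at the 10.0% of all protein-coding genes. The TRAPP bar is TRAPPC14, listed under its older symbol, and most classes rest on 0 to 2 genes.

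Other genes of the route, from 7 lists with 143 genes that the symbol rule leaves out, gave 26 in the table (18.2%), against 10.0% of all protein-coding genes. Of these 24 were called 2-fold higher, against 80.6% of all genes in the table, and their median log2 ratio was 1.14, against 1.33. No test was made. The lists are selections chosen with earlier results of these data known. The table requires a knockout value of at least 1, and the lists were not matched in level to all protein-coding genes. The higher share is therefore not read as enrichment. RAB GTPases, which mark membrane identity, gave 9 of 28, led by RAB31 of the trans-Golgi network and endosomes at 31.29 in knockout and 4.60 in wild-type cells and RAB9A of the late endosome at 85.91 in knockout and 25.48 in wild-type cells. Their folds were 6.79 (6.02 to 7.69) and 3.34 (3.03 to 3.67). Export and cargo receptors gave 4 of 19, with KDELR3, which returns escaped residents to the endoplasmic reticulum, at 26.28 in knockout and 5.49 in wild-type cells, and BCAP31 at 208.72 in knockout and 66.22 in wild-type cells.
Clathrin and its accessory proteins gave 6 of 26, with AP2A2, an alpha subunit of AP-2, at 29.05 in knockout and 9.83 in wild-type cells, and AMPH at 1.66 in knockout and 0.04 in wild-type cells, from 118 knockout reads and 1 wild-type read. Other SNAREs and their cofactors gave 3 of 16, with NAPG, which helps to take SNARE complexes apart, at 17.74 in knockout and 5.45 in wild-type cells, and VTI1B at 83.98 in knockout and 37.48 in wild-type cells. WASH and recycling genes gave 2 of 22 (EHD3 at 4.07 in knockout and 1.03 in wild-type cells, COMMD3 at 37.09 in knockout and 17.26 in wild-type cells), golgins and other tethers 1 of 20 (RINT1 at 18.01 in knockout and 8.28 in wild-type cells) and early ESCRT genes 1 of 12 (USP8 at 41.92 in knockout and 20.04 in wild-type cells).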

How the data were processed

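RNA of 1 TMEM25 knockout and 1 wild-type MDA-MB-231 sample was sequenced. HISAT2 2.0.4, CASAVA 1.4 and the build GRCh38.p12 are listed in the submitters' processing notes. How reads were counted, and on which strand, is not given in the sources used here. Per the file headers the authors deposited an expression value per gene and library, used as a signal scaled for length and depth, and its mean over both libraries. The authors deposited a read count per gene as an estimated count, which was not whole for 12 members. The deposited ratio is knockout over wild type in 2046 of 2046 genes (tolerance 1e-06). The deposited log2 columns have crossed headers in 2046 of 2046 genes and were not used. Columns were assigned to samples by genotype, with 0 left unassigned.

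The members, their classes and all gene lists were chosen with earlier results of these data known. The log2 ratio has a pseudocount of 1, all 2046 genes have a value of at least 1, and 2-fold was called by size, with no test. The read-count fold is the ratio of counts over 1.155, which is the libraries' median difference in reads for the same value (1133 genes, each with 100 or more wild-type reads, 86.4% within 5%). Its 95% interval is the exact conditional binomial (Clopper-Pearson) interval on rounded counts, with 3 reads standing for 0 in the fold. PCR copies are not independent molecules, so intervals and this floor cover counting error only. On simulated counts from 1821 genes of this comparison the interval held the true fold in 96.5%, 96.0% and 95.0% of 200 genes at 2-, 4- and 10-fold. The counts were drawn as Poisson, the model the interval assumes, so this checks the computation and not its fit to these libraries. Genes with the fewest wild-type reads, such as SNX7, were left out of it. Coordinates are from GENCODE 29 (GRCh38), names and promoters from RefSeq (GRCh38.p14), matched for 32 members by Entrez number. Python 3.11.15, pandas 2.3.3 and SciPy 1.17.1 were used.

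Values are given for STXBP3, the 12 members with the highest log2 ratio, the 5 with the highest knockout value, the highest and lowest of each class and those under 10 wild-type reads, and for up to 2 genes of each other list. Results of 3 members are not reported here. The remaining members and RAB27A, DCLRE1B and TRAPPC14 were named after their values were seen. Alternatives were the pseudocount, a filter on the mean, centring, the measure, the threshold and the mean of members. Those that leave out or reassign members were chosen after seeing the data.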

Additional observations from a re-analysis of the deposited data

How the results depend on the processing

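The count of 27 members called 2-fold higher was 16 with a pseudocount of 5, 4 after centring on the median of all genes and 5 under the 4-fold rule. For secretory members the count of 12 was 2 after centring, 2 under the 4-fold rule and 7 without synaptotagmins and Slps. For endosomal members the count of 10 was 5 with a pseudocount of 5, 2 after centring and 3 under the 4-fold rule. These are lower by construction of stricter rules or smaller sets. In the 9 other alternatives run for each of the 3 counts, it stayed within 1.5 times. Among these the deposited ratio called every member, which the selection of the table fixes. Read counts called every member too, but their fold is scaled to the values of the same selected genes and is no separate check. The median log2 ratio was 1.09 for secretory and 0.98 for endosomal members with a pseudocount of 5, and 0.14 for secretory and 0.019 for endosomal members after centring. The mean in place of the median was 1.83 for secretory and 1.72 for endosomal members, and the secretory median was 1.57 from the deposited ratio. Their difference of 0.12 ran from 0.06 to 0.17 over 11 alternatives, with secretory members the higher in each. Centring takes the same amount from both and cannot change the difference, and the filter on the mean also left it at 0.12. All alternatives reuse the same 2 libraries and largely the same members, so they are no check on its direction. No paired analysis was possible because each genotype has 1 library. Depth limits VAMP5 (15 wild-type reads), SYTL5 (6) and SNX7 (0) most.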

Other observations

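TRAPPC14, a subunit of the TRAPP tether that the table lists under the older symbol C7orf43, was at 12.98 in knockout cells and 5.51 in wild-type cells, with a read-count fold of 2.25 (95% counting interval 1.91 to 2.66).

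Of 31 members placed beside their nearest protein-coding genes in GENCODE 29, 18 (58.1%) had at least 1 such neighbour in the table, against 37.7% of all 2007 placed genes. Neighbours include overlapping genes, and no test was made. Beside SNX7, with 0 wild-type reads, DPYD and PLPPR5 also had the value 0.1 that stands for a count of 0, and were at 1.11 and 1.54 in knockout cells. Both neighbours of SYTL2 were low, CCDC89 at 1.49 in knockout cells and 0.05 in wild-type cells, and CCDC83 at 1.69 in knockout cells and in wild-type cells at the 0.1 standing for a count of 0. SYNPO2, next to SEC24D, was at 9.38 in knockout and 0.19 in wild-type cells, and VGF, a secreted neuropeptide precursor next to AP1S1, at 59.12 in knockout and 0.44 in wild-type cells, a larger fold (135, 85.0 to 228) than that of AP1S1 itself.

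The expression value and the read count gave different ratios for 3 of the 27 members with at least 100 wild-type reads, while 24 lay within 5%. Reads per unit of value, knockout over wild type and relative to the median gene, were 0.82 for SYTL2 and 0.91 for both SNX9 and SYT17. For SYTL2 the ratio of 69.8 in the authors' deposited table therefore stands against a read-count fold of 57.3.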
